A study of Mus musculus with 8 samples.

Results

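Cd68, Nrp1, Ehd4, Ctnnd2, Plcd3 and Ahnak are 6 genes, of 37991 in the count table, chosen by their higher level in H2afy-/- than in H2afy+/+ progenitors. The values they were selected on are the CPM values (counts scaled to a common library size) of the same 8 samples described here, so their difference between genotypes is given as a description with no test. All 6 passed the filter on low counts, which kept 13722 genes. The samples were B-cell-biased lymphoid progenitors sorted from bone marrow enriched for Kit-positive cells, from mice aged 5 to 12 weeks. The H2afy_KO group held 4 pools from H2afy-/- mice and the H2afy_WT group 4 pools from H2afy+/+ mice, each pool with RNA equal to 5000 to 15000 cells of 2 to 3 mice. H2afy encodes the histone variant macroH2A1. The labels give neither the deleted part of the allele nor the strain, and do not say whether pools share mice. The series title ties the splicing of H2afy by mutant U2AF1 to B-cell development, and the comparison asks what loss of H2afy does to transcripts of a progenitor of that lineage.

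The 6 genes belong to different cell systems. Cd68 encodes a heavily glycosylated protein of the lysosome-associated membrane protein (LAMP) family and is widely used as a marker of macrophages. Nrp1 encodes neuropilin-1, a co-receptor for class 3 semaphorins and vascular endothelial growth factor, and in human blood it marks plasmacytoid dendritic cells. Ehd4 encodes an ATPase with an EH domain that works in endocytic recycling, and Ctnnd2 encodes delta-catenin, a member of the p120 catenin family best known from neurons. Plcd3 encodes a phospholipase C that cleaves a membrane phosphoinositide into inositol trisphosphate and diacylglycerol. Ahnak encodes a giant scaffold protein that binds S100a10 and annexin A2.

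Totals per pool were 21330088 to 29029765 counts. H2afy itself had 1659 ± 238 CPM in H2afy_KO, against 2267 ± 288 CPM in H2afy_WT pools (SD, n = 4 each). With the deleted part unknown, this gene-level value is no check of the genotype labels. Genes that define the sorted progenitor were present in both groups, but its 17-gene marker list summed to 7198 to 8918 CPM in H2afy_KO pools, below the 10042 to 12717 CPM of H2afy_WT pools. In that list 15 genes had a negative and 2 a positive log2 fold change (median -0.78). By edgeR 0 passed the adjusted threshold, 12 were lower at an unadjusted p under 0.05 (3.69% of all tested genes were), and 10 lay wholly below H2afy_WT (2.35% of all). DESeq2 called 4 of them lower, Ebf1, Rag1, Foxo1 and Blnk (0.542% of all genes were), and with the replicate block it called 11 lower (1.58% of all were). In edgeR with that block Rag1, a recombinase gene of lymphocytes, was lower (adjusted p = 0.0467). Ly6d had 947 ± 289 CPM in H2afy_KO, against 739 ± 167 CPM in H2afy_WT pools, Il7r had 341 ± 17.7 CPM in H2afy_KO, against 426 ± 30.4 CPM in H2afy_WT pools, and Flt3 had 1022 ± 147 CPM in H2afy_KO, against 980 ± 90.9 CPM in H2afy_WT pools (SD, n = 4 each). The share of counts on immunoglobulin genes differed widely within each genotype, at 0.402%, 10.0%, 39.0% and 33.4% across H2afy_KO pools 1 to 4 and 3.47%, 0.948%, 19.5% and 12.9% across H2afy_WT pools 1 to 4. At an adjusted p under 0.05, 0 genes were higher and 0 were lower by edgeR's quasi-likelihood test. Before adjustment, 533 genes (3.88%) were higher and 507 (3.69%) lower at p under 0.05. DESeq2 called 48 genes higher and 78 lower (0.334% and 0.542%), and edgeR with the replicate number as a block called 4 higher and 11 lower (0.0292% and 0.0802%). Under the other edgeR and limma settings the share called higher was 0%, 0.00729% or 0.025%, and the share called lower was 0%, 0.0071%, 0.0146%, 0.0209%, 0.0219%, 0.0221%, 0.0292% or 0.0321%.

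The starting regions of Cd68, Nrp1 and Ehd4 are shown because the levels of these 3 genes varied together from pool to pool while their CpG content differs. Each is the 300 bases from 250 before to 50 after the start of the gene in RefSeq, build GRCm38.p6, read 5′ to 3′ on the strand of the gene, with CpG dinucleotides in capitals. The region of Cd68 is chr11:69666121-69666420 on the minus strand, that of Nrp1 is chr8:128358823-128359122 on the plus strand, and that of Ehd4 is chr2:120154526-120154825 on the minus strand.
Cd68: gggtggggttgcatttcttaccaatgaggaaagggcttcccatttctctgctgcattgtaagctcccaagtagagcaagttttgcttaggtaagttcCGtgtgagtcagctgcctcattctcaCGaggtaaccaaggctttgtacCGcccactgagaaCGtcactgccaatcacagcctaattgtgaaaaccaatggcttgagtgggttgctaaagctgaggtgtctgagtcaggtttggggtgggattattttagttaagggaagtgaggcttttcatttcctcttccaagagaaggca
Nrp1: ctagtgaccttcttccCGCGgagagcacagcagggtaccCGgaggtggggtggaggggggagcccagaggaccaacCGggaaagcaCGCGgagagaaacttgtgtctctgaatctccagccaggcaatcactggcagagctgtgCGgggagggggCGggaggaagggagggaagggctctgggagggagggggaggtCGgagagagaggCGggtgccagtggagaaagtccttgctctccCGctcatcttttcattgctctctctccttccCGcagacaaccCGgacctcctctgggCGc
Ehd4: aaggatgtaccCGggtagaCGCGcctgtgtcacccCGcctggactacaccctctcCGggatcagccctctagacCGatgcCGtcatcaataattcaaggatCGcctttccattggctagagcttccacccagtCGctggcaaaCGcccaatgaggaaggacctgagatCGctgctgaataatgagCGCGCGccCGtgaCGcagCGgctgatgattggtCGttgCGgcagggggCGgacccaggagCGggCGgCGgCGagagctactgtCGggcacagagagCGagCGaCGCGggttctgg
Cd68 has 4 CpG dinucleotides and a GC content of 47.7%, Nrp1 has 14 and 64.0%, and Ehd4 has 29 and 62.7%. The median over 32841 such regions is 7 CpG dinucleotides and 52.7% GC. By the ratio of observed to expected CpG, Cd68 stood at percentile 34.3, Nrp1 at 56.5 and Ehd4 at 93.4. The other 3 genes had 22 to 28 CpG dinucleotides and a GC content of 62.3% to 67.3%.

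A search for 6 short motifs on both strands of the 300 bases found GGGCGG, the Sp type, in all 6 regions, with 4 matches in Ahnak, 2 in Ehd4 and 1 in each other gene. It is also in 35.7% of all 32841 regions, and within 50 bases on either side of the start it was in 4 of the 6, where 21.7% of all regions have it. A 10-letter motif of the interferon response type was found once, in Plcd3, and is in 3.44% of all regions. GAGGAAGT (PU.1 type), the 10-letter CLEAR palindrome of lysosomal genes, CCCNNGGG (EBF type) and TATAAA were found in 0 of the 6, and are in 3.20%, 0.326%, 13.7% and 13.6% of all regions. The CLEAR motif and CCCNNGGG read the same on both strands, and no match says only that these letters are not in the window.

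Cd68 had 69.1, 70.2, 98.9 and 77.3 CPM across H2afy_KO pools 1 to 4, against 22.4, 22.5, 39.2 and 31.0 CPM across H2afy_WT pools 1 to 4. The lowest H2afy_KO pool was 29.8 CPM above the highest H2afy_WT pool. The means were 78.9 ± 13.9 CPM in H2afy_KO, against 28.8 ± 8.05 CPM in H2afy_WT pools (SD, n = 4 each), a ratio of 2.74 and a log2 fold change of 1.45. The gene (ENSMUSG00000018774) is short, with 1257 exonic bases in 6 blocks on the minus strand of chromosome 11 from 69477715 to 69479655 in NCBIM37, the assembly that mm9 names.

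Nrp1 had 42.3, 43.4, 63.1 and 52.4 CPM across H2afy_KO pools 1 to 4, against 19.6, 13.1, 30.9 and 28.2 CPM across H2afy_WT pools 1 to 4. The groups were apart by 11.4 CPM between the lowest H2afy_KO and the highest H2afy_WT pool. The log2 fold change was 1.13, from means of 50.3 ± 9.66 CPM in H2afy_KO, against 23.0 ± 8.15 CPM in H2afy_WT pools (SD, n = 4 each). Nrp1 (ENSMUSG00000025810) has 17 exonic blocks on the plus strand of chromosome 8 from 130882973 to 131029362 in NCBIM37.

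Ehd4 had 16.7, 20.7, 34.8 and 30.7 CPM across H2afy_KO pools 1 to 4, against 9.32, 7.29, 15.3 and 11.8 CPM across H2afy_WT pools 1 to 4. Its groups came closest of the 6 genes in ratio: the lowest H2afy_KO pool had 1.10 times the level of the highest H2afy_WT pool. The means were 25.7 ± 8.43 CPM in H2afy_KO, against 10.9 ± 3.44 CPM in H2afy_WT pools (SD, n = 4 each), a log2 fold change of 1.24. Ehd4 (ENSMUSG00000027293) lies on the minus strand of chromosome 2 from 119914911 to 119980342 in NCBIM37, with 9 exonic blocks.

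Ctnnd2 had 12.8, 12.8, 15.0 and 11.3 CPM across H2afy_KO pools 1 to 4, against 4.09, 5.89, 4.27 and 5.75 CPM across H2afy_WT pools 1 to 4. The lowest H2afy_KO pool had 1.91 times the level of the highest H2afy_WT pool, and the pools of each genotype lay close together. The coefficient of variation was 11.8% in H2afy_KO and 19.1% in H2afy_WT pools, and the log2 fold change was 1.37. Ctnnd2 (ENSMUSG00000022240) spans 856719 bases on the plus strand of chromosome 15 from 30102348 to 30959066 in NCBIM37, longer than 99.8% of the tested genes.

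Plcd3 was the lowest of the 6, with 2.76, 1.65, 4.25 and 2.87 CPM across H2afy_KO pools 1 to 4, against 0.675, 0.377, 0.251 and 0.526 CPM across H2afy_WT pools 1 to 4. These levels rest on 87, 38, 70 and 68 counts in the H2afy_KO pools, against 20, 10, 6 and 14 counts in the H2afy_WT pools. The groups did not overlap, and the lowest H2afy_KO pool had 2.45 times the level of the highest H2afy_WT pool. The log2 fold change of 2.63 was the largest of the 6 and has the fewest counts behind it. Plcd3 (ENSMUSG00000020937) lies on the minus strand of chromosome 11 from 102931618 to 102962972 in NCBIM37. The noncoding gene Gm17536 overlaps its span on the other strand but shares 0 exonic bases with it.

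Ahnak had 42.1, 58.7, 43.7 and 57.1 CPM across H2afy_KO pools 1 to 4, against 14.9, 23.2, 28.6 and 23.4 CPM across H2afy_WT pools 1 to 4. The lowest H2afy_KO pool was 13.5 CPM above the highest H2afy_WT pool. The means were 50.4 ± 8.69 CPM in H2afy_KO, against 22.5 ± 5.68 CPM in H2afy_WT pools (SD, n = 4 each), a log2 fold change of 1.16. Ahnak (ENSMUSG00000069833) has 18810 exonic bases in 9 blocks on the plus strand of chromosome 19 from 9063750 to 9151409 in NCBIM37, and gene counts do not show how reads spread along so long a transcript.

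**Figure D1:**
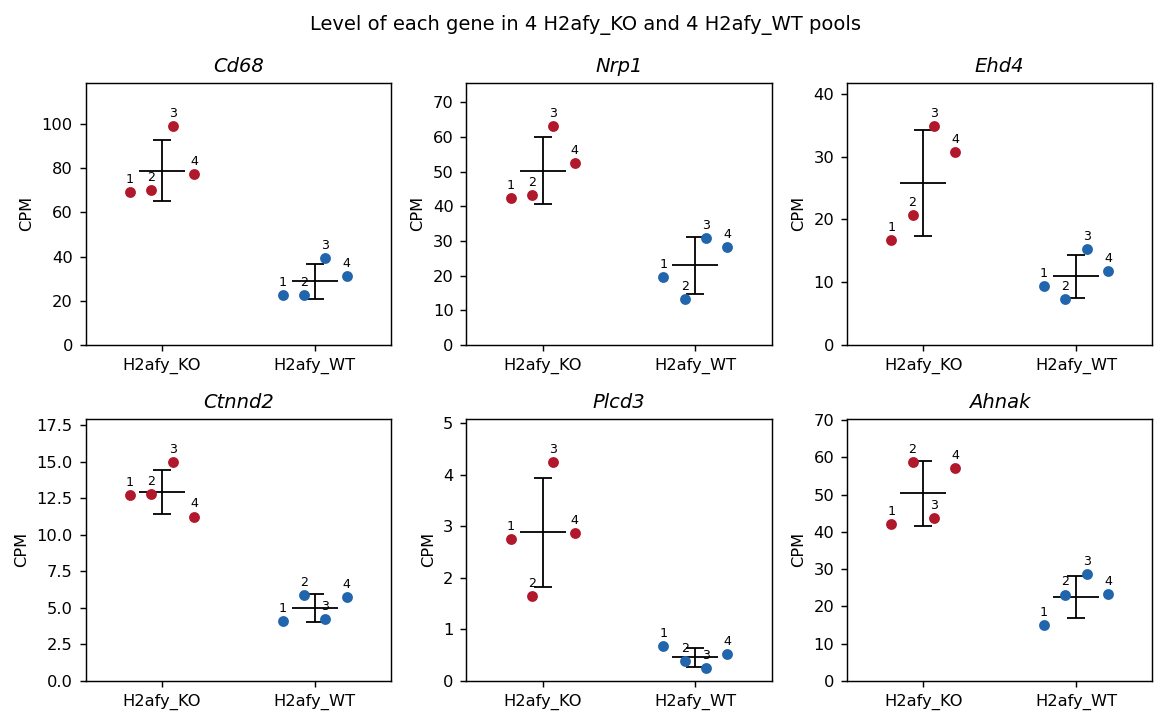
Level of each of the 6 genes in CPM (vertical axes, from 0) in the H2afy_KO pools (red, left) and the H2afy_WT pools (blue, right), with pool numbers beside the points and bars at the mean ± SD of 4 pools. In each panel the 4 H2afy_KO pools sit above the 4 H2afy_WT pools, with the narrowest ratio for Ehd4, where the lowest H2afy_KO pool had 1.10 times the level of the highest H2afy_WT pool.

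The picking rule asked for higher levels in the H2afy_KO pools, so the lack of overlap in all 6 is no result about them. Of the 13722 tested genes, 299 (2.18%) had all 4 H2afy_KO pools above all 4 H2afy_WT pools, and 322 (2.35%) the reverse. Ordered by log2 fold change within those 299, Plcd3 stood at place 3, Cd68 at 24, Ctnnd2 at 27, Ehd4 at 39, Ahnak at 46 and Nrp1 at 48. The 6 genes are therefore a selection from the upper part of a longer list. The differences between same-numbered pools on the log2 scale, H2afy_KO minus H2afy_WT, were 1.62, 1.64, 1.33 and 1.32 for Cd68 and 1.62, 1.11, 1.79 and 0.96 for Ctnnd2. For Ahnak they were 1.50, 1.34, 0.61 and 1.28, so the pools numbered 3 gave the smallest difference of that gene.

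**Figure D2:**
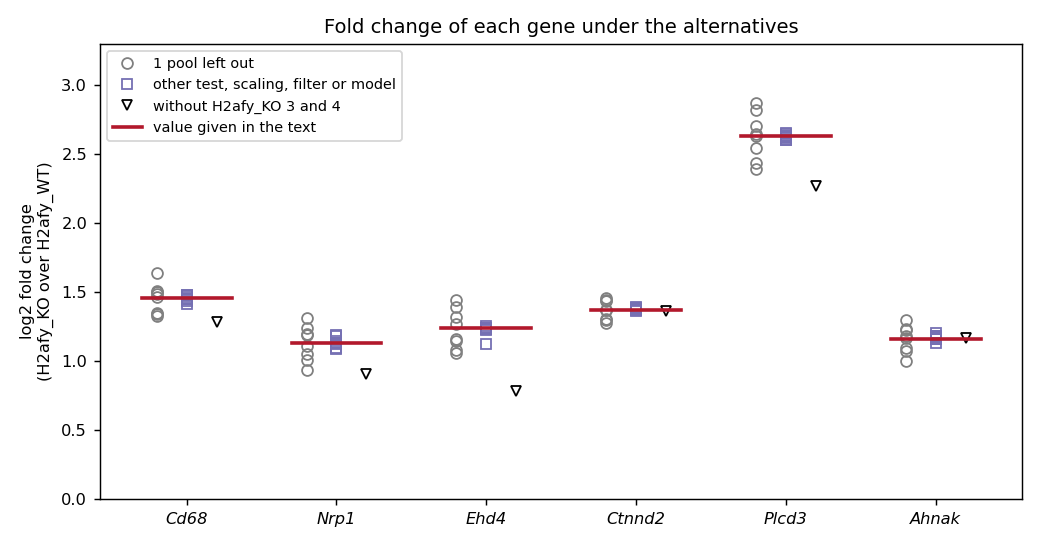
Log2 fold change, H2afy_KO over H2afy_WT, of each gene (vertical axis) in the edgeR fit used here (red line), with 1 pool left out (circles), with another test, scaling, filter or model (squares) and without H2afy_KO 3 and 4 (triangles). All values stay above 0, and the lowest, 0.79, is that of Ehd4 without H2afy_KO 3 and 4. The genes were picked as higher in these same H2afy_KO pools, so the sign is no result about them.

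Per kilobase of exon, the levels kept one order in both genotypes. RPKM values, which scale CPM by the length of the union of annotated exons, averaged 62.7 ± 11.03 for Cd68, 8.52 ± 1.63 for Nrp1 and 6.42 ± 2.10 for Ehd4 in H2afy_KO pools, and 22.9 ± 6.40, 3.89 ± 1.38 and 2.72 ± 0.858 for the same genes in H2afy_WT pools (SD, n = 4 each). Ahnak followed with 2.68 ± 0.462 RPKM in H2afy_KO and 1.20 ± 0.302 RPKM in H2afy_WT pools, then Ctnnd2 with 2.19 ± 0.259 RPKM in H2afy_KO and 0.845 ± 0.161 RPKM in H2afy_WT pools. Plcd3 came last with 0.849 ± 0.313 RPKM in H2afy_KO and 0.135 ± 0.0541 RPKM in H2afy_WT pools. The pool ranges of Nrp1 and Ehd4 overlapped within each genotype, as did those of Ahnak and Ctnnd2, although within a pool Nrp1 was above Ehd4 in 8 of 8 pools and Ahnak above Ctnnd2 in 7 of 8. Among all tested genes, the mean RPKM of Cd68 stood at percentile 92.1 in H2afy_KO and 80.7 in H2afy_WT pools, and that of Plcd3 at percentile 19.4 in H2afy_KO and 2.67 in H2afy_WT pools.

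The deviations of the pools from their own genotype mean, which the picking rule did not use, were alike in Cd68, Nrp1 and Ehd4 and less so in the other 3 genes. For Cd68, Nrp1 and Ehd4, pools 3 and 4 had the 2 highest levels in H2afy_KO and also the 2 highest in H2afy_WT. On the log2 scale H2afy_KO 3 deviated by 0.34 in Cd68, 0.35 in Nrp1 and 0.50 in Ehd4, and H2afy_WT 3 by 0.49, 0.51 and 0.54 for the same genes. Over the 8 pools these deviations had a Pearson r of 0.90 between Cd68 and Nrp1, 0.88 between Cd68 and Ehd4 and 0.89 between Nrp1 and Ehd4, given as a measure of likeness with no test. Pools 3 and 4 were also the highest of H2afy_KO for Plcd3 and of H2afy_WT for Ahnak, but not of the other genotype. The r of Ahnak was 0.45 with Cd68, 0.25 with Nrp1 and 0.34 with Ehd4. That of Plcd3 was -0.08, 0.11 and 0.13 with the same genes, and that of Ctnnd2 was 0.04, -0.17 and -0.16. Plcd3 and Ahnak ran opposite to each other at r = -0.78.

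The pools that stood high in Cd68, Nrp1 and Ehd4 were also those with the largest immunoglobulin shares of their genotype. H2afy_KO 3 and 4 had 39.0% and 33.4% of counts on immunoglobulin genes, and H2afy_WT 3 and 4 had 19.5% and 12.9%. The mature B and plasma cell list moved with them: its summed level was 273, 5657, 21388 and 17998 CPM across H2afy_KO pools 1 to 4, against 2408, 692, 9391 and 6604 CPM across H2afy_WT pools 1 to 4. Within it, Sdc1, the plasma cell surface proteoglycan, had 35.3, 53.2, 151 and 118 CPM in H2afy_KO 1 to 4 and 36.8 to 40.3 CPM in H2afy_WT pools. The conventional dendritic cell list was also highest in pools 3 and 4 of each genotype. It summed to 1016, 2451, 7745 and 5880 CPM across H2afy_KO pools 1 to 4, against 1033, 1377, 3460 and 2034 CPM across H2afy_WT pools 1 to 4. The summed lists of mast cells and basophils, of stroma and endothelium and of the lysosome and LAMP family had the same high pools. The part of any of these cell types in the levels of the 3 genes was not tested. With the log2 immunoglobulin share as a covariate the log2 fold changes were 1.42 for Cd68, 1.10 for Nrp1 and 1.12 for Ehd4. Without H2afy_KO 3 and 4 they were 1.28 for Cd68 and 0.91 for Nrp1, and that of Ehd4 was 0.79, against 1.24 with all pools. Those of Ctnnd2 and Ahnak were 1.36 and 1.17 without these pools, and that of Plcd3 was 2.27.

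**Figure D3:**
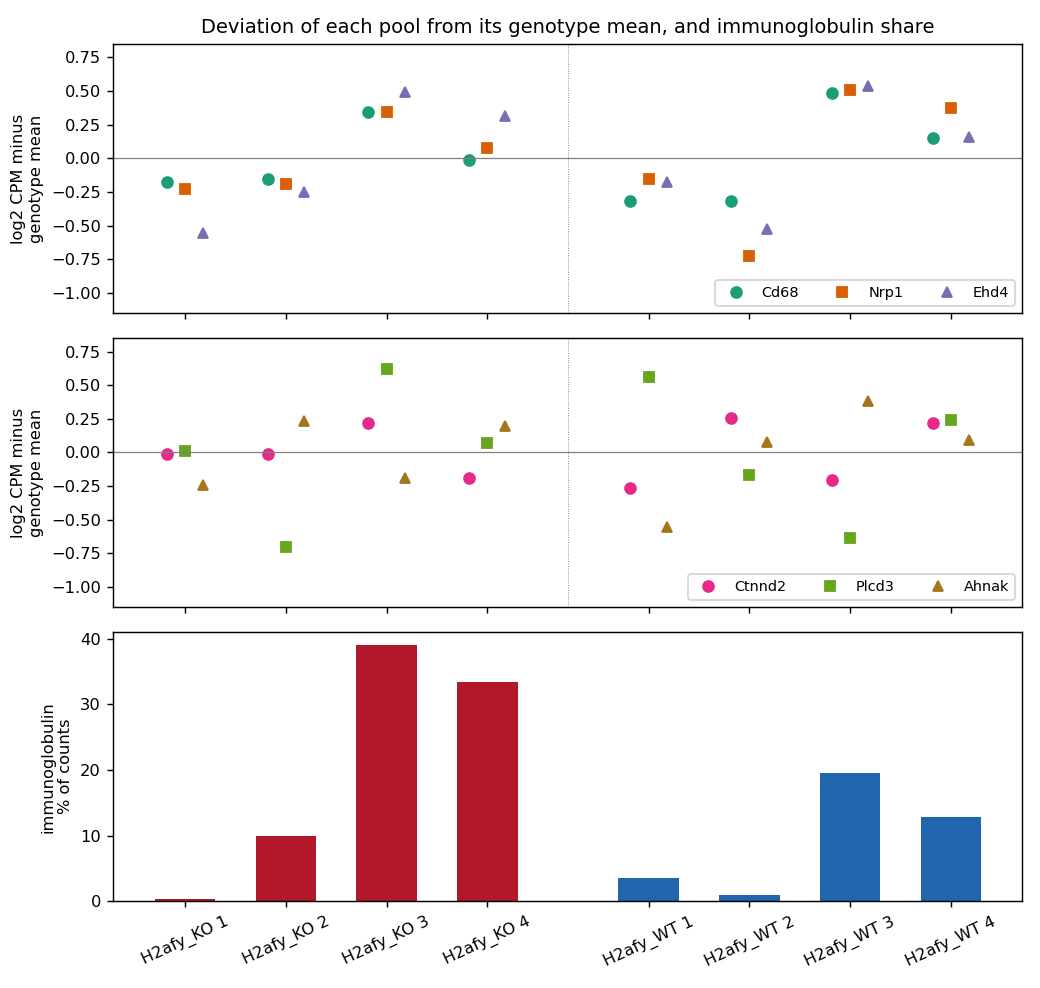
Top and middle, log2 CPM of each pool minus the mean of its genotype (vertical axes) for Cd68, Nrp1 and Ehd4 and for Ctnnd2, Plcd3 and Ahnak. Bottom, percent of counts on immunoglobulin genes, with H2afy_KO pools in red at the left and H2afy_WT pools in blue at the right. Cd68, Nrp1 and Ehd4 share their high pools, H2afy_KO 3 and H2afy_WT 3 among them, which also hold 39.0% and 19.5% immunoglobulin.

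Markers of cells known to express Cd68 or Nrp1 were read beside them. The monocyte and macrophage list had 21 of 24 genes tested, with 17 positive and 4 negative log2 fold changes, a median of 0.52 (0.31 without H2afy_WT 2) and 0 genes past the edgeR test. At an unadjusted p under 0.05, 5 were higher and 0 lower (3.88% and 3.69% of all genes were), and 2 lay wholly above H2afy_WT (2.18% of all genes did). DESeq2 called 0 of the list higher and 0 lower (0.334% and 0.542% of all genes were). With the replicate block it called 2 of the list higher, where it called 1.66% of all genes higher. The 2 were the signaling adaptors Tyrobp (log2 fold change 0.67) and Fcer1g (0.78), which other myeloid and natural killer cells also use. Its summed level was 549 to 2010 CPM in H2afy_KO, against 362 to 1467 CPM in H2afy_WT pools, so the groups overlapped. Csf1r, the receptor that defines the lineage, had 23.2, 26.3, 42.0 and 30.5 CPM across H2afy_KO pools 1 to 4, against 22.2, 9.17, 23.8 and 22.5 CPM across H2afy_WT pools 1 to 4 (log2 fold change 0.65). The macrophage marker Adgre1 had 0.476 to 11.8 CPM in H2afy_KO, against 1.55 to 8.37 CPM in H2afy_WT pools. Cd14 was at most 2.43 CPM in any pool and at 0 in H2afy_WT 2, and Lyz2, the myeloid lysozyme and 1 of the 4 negative genes, had a log2 fold change of -1.25. H2afy_KO 1, whose Adgre1 level of 0.476 CPM was the lowest of the 8 pools, had 23.2 CPM of Csf1r and 69.1 CPM of Cd68. The summed list was lowest in H2afy_WT 2, at 362 CPM, where Cd68 was at 22.5 CPM. The neutrophil list was on the other side, with 15 of 15 tested genes negative and a median of -1.57. By edgeR 0 passed, 1 was lower at an unadjusted p under 0.05 (3.69% of all genes were), and 1 lay wholly below H2afy_WT (2.35% of all). DESeq2 called 1 lower, Csf3r (0.542% of all genes were). The summed levels overlapped, at 984 to 3234 CPM in H2afy_KO pools. They were 6746, 1458, 2094 and 10221 CPM across H2afy_WT pools 1 to 4, so the high values were those of H2afy_WT 1 and 4.

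The plasmacytoid dendritic cell list had 17 of 18 genes tested, 16 with a positive log2 fold change, a median of 0.59 and 0 past the edgeR test. Its summed level did not overlap, at 3351 to 4141 CPM in H2afy_KO, against 2485 to 3078 CPM in H2afy_WT pools. Of its genes, 9 were higher at an unadjusted p under 0.05, where 3.88% of all tested genes were, and 4 lay wholly above H2afy_WT, where 2.18% of all did. DESeq2 called 3 of them higher, Irf8, Cox6a2 and Bst2 (0.334% of all genes were). With the replicate block it called 9 higher, those 3 and Irf7, Plac8, Runx2, Pacsin1, Pld4 and Lair1 (1.66% of all genes were). Irf8, a transcription factor of dendritic cell and monocyte development, had 318, 272, 355 and 353 CPM across H2afy_KO pools 1 to 4, against 122, 164, 180 and 174 CPM across H2afy_WT pools 1 to 4 (log2 fold change 1.02, edgeR adjusted p = 0.0722). Its adjusted p was 0.0420 in edgeR with the replicate block, 0.00166 in edgeR with no filter and 6.62e-06 in DESeq2. Siglech, a surface lectin of these cells, overlapped between the groups, at 87.0 to 195 CPM in H2afy_KO, against 54.3 to 193 CPM in H2afy_WT pools. The conventional dendritic cell list had 12 of 13 genes tested, with 10 positive and 2 negative log2 fold changes. Its median was 0.52, and 0.36 without H2afy_KO 3 and 4. By edgeR 0 passed, 5 were higher with p below 0.05 before adjustment (3.88% of all genes), and 0 lay wholly above H2afy_WT. DESeq2 called 0 of the list, and with the replicate block 3 higher, Clec9a, H2-Aa and H2-Eb1 (1.66% of all genes). Its summed level, given above, overlapped between the groups. The endothelial gene Cdh5, read because endothelium expresses Nrp1, had 2.30 ± 1.61 CPM in H2afy_KO, against 1.54 ± 1.29 CPM in H2afy_WT pools (SD, n = 4 each). The stroma and endothelium list had 6 of 9 genes tested, with 3 positive and 3 negative log2 fold changes and a median of -0.21. The part of any of these cell types in the levels of the 6 genes was not tested, and in bulk pools more cells of a type and more RNA per cell cannot be told apart.

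None of the genes next to the 6 passed the edgeR test, but 0 of all 13722 tested genes did, so this is no result about the neighbours. The 3 nearest tested genes on either side numbered 34, since Nrp1 has only 1 tested gene beyond it before the end of its chromosome. Of the 34, 0 had an unadjusted p under 0.05 (3.88% of all genes were higher and 3.69% lower by that measure). In 0 of the 34 did the groups lie apart (2.18% of all genes lay wholly above H2afy_WT and 2.35% wholly below). Their log2 fold changes ran from -0.88 to 0.65 with a median of -0.04, against 0.00 for all tested genes. Eif4a1, which encodes a translation initiation helicase and ends 782 bases from Cd68 on the same strand, had 141 CPM in H2afy_KO, against 146 CPM in H2afy_WT pools on average. Acbd4 runs away from Plcd3 with 23 bases between them, and had 5.83 CPM in H2afy_KO, against 4.01 CPM in H2afy_WT pools (log2 fold change 0.54, edgeR adjusted p = 0.781). Nmt1, the abundant N-myristoyltransferase gene 1391 bases beyond the other end of Plcd3, had a log2 fold change of -0.00.

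**Figure D4:**
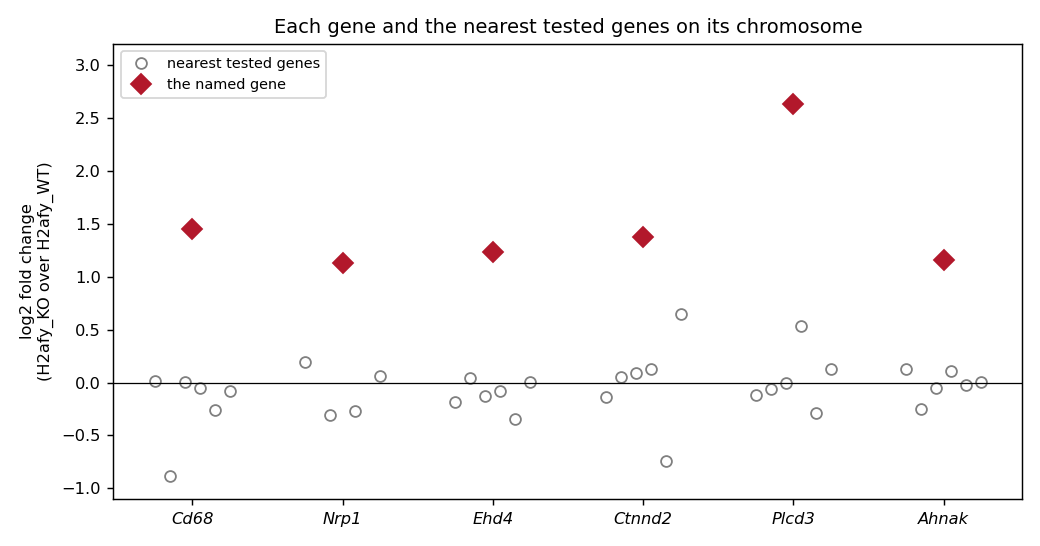
Log2 fold change, H2afy_KO over H2afy_WT (vertical axis), of each of the 6 genes (red diamonds) and of the nearest tested genes on either side of it (open circles). The neighbours lie between -0.88 and 0.65 and the 6 chosen genes between 1.13 and 2.63.

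The pathway of each gene was read through a list of its partners and relatives that left the gene itself out, in the edgeR fit over all genes. None of the 6 lists held a gene past the threshold, which 0 of all 13722 tested genes passed. The count was also 0 in edgeR with the replicate block, which called 0.0292% of all genes higher and 0.0802% lower. These zeros are therefore no result about the lists. DESeq2 called 0 higher and 2 lower genes, Anxa1 and Prkcb, of those lists. DESeq2 with the replicate block called 9 higher and 4 lower, beside 1.66% of all genes called higher and 1.58% called lower by that fit. By list the 9 were 5 of the 24 listed genes around Cd68, 1 of 39 around Nrp1 and 1 of 31 around Ehd4. The rest of the 9 were 1 of 25 around Ctnnd2 and 1 of 23 around Ahnak. The 4 lower were 3 of 34 around Plcd3 and 1 of 23 around Ahnak. Without the block DESeq2 called 0.334% of all genes higher and 0.542% lower.

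The lysosome and LAMP list around Cd68 leaned to positive values. Of its 22 tested genes 20 were on the positive side, and the median log2 fold change was 0.35 against 0.00 over all tested genes. Of the 22, 5 were higher at an unadjusted p under 0.05 (3.88% of all genes were) and 3 lay wholly above H2afy_WT (2.18% of all). Lgmn, the lysosomal protease legumain, had 94.2 ± 38.5 CPM in H2afy_KO, against 52.1 ± 9.10 CPM in H2afy_WT pools (SD, n = 4 each; log2 fold change 0.85, edgeR adjusted p = 0.473). Ctsz, which encodes cathepsin Z, had 186, 173, 307 and 233 CPM across H2afy_KO pools 1 to 4, against 138, 131, 164 and 168 CPM across H2afy_WT pools 1 to 4 (log2 fold change 0.58, edgeR adjusted p = 0.485). The relatives Lamp1 and Lamp2, named after their values were seen, were at 0.35 each. Without H2afy_KO 3 and 4, the pools richest in immunoglobulin, the median of the list was 0.15, and without either pool alone or any other single pool it was 0.24 to 0.45. Under DESeq2 with the replicate block the cathepsin genes Ctsb, Ctsl, Ctss and Ctsz and Lgmn were higher, at log2 fold changes of 0.54 to 0.90. That fit called 1.66% of all genes higher.

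The list around Nrp1 had no lean: 16 of 31 tested genes were positive and the median was 0.01, or -0.11 without H2afy_KO 2. Pgf, which encodes a placental growth factor, had 1.28 ± 0.704 CPM in H2afy_KO, against 2.85 ± 0.555 CPM in H2afy_WT pools (SD, n = 4 each). Met, the receptor of hepatocyte growth factor, ranged over 0.952 to 3.17 CPM in H2afy_KO, against 0.304 to 1.13 CPM in H2afy_WT pools. Their edgeR adjusted p-values were 0.537 and 0.600. Nrp2, the relative of Nrp1, named after its values were seen, had 0.0635, 0.261, 4.25 and 2.53 CPM across H2afy_KO pools 1 to 4, against 0.0338, 0.113, 1.30 and 1.35 CPM across H2afy_WT pools 1 to 4, so it too was highest in pools 3 and 4 of each genotype. Of the 7 class 3 semaphorin ligands, 5 did not pass the filter on low counts.

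Around Ehd4 the recycling genes were centred on 0. Of 30 tested genes 14 were positive, and the median was -0.01. Pacsin1, an adaptor of endocytosis that is also in the plasmacytoid dendritic cell list, had 2.99 ± 1.34 CPM in H2afy_KO, against 0.920 ± 0.450 CPM in H2afy_WT pools (SD, n = 4 each; log2 fold change 1.70, edgeR adjusted p = 0.467), and Snx3, a sorting nexin, was at 0.32 (edgeR adjusted p = 0.633). Pacsin1 was higher in DESeq2 with the replicate block (adjusted p = 0.00596). The other EHD genes, named after their values were seen, did not pass the test: Ehd1 was at 0.01, Ehd3 at -0.01 and Ehd2 at -1.21 (edgeR adjusted p = 0.690), with 1.34 CPM in H2afy_KO, against 3.12 CPM in H2afy_WT pools.

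The junction list around Ctnnd2 had 10 of 18 tested genes positive and a median of 0.03, or -0.12 without H2afy_KO 3 and 4. Afdn, an actin-binding partner of nectins, had 3.87, 2.44, 2.37 and 2.40 CPM across H2afy_KO pools 1 to 4, against 1.01, 0.604, 1.21 and 1.77 CPM across H2afy_WT pools 1 to 4 (edgeR adjusted p = 0.473). Pkp3, a plakophilin of the same armadillo family, was at 0.76 (edgeR adjusted p = 0.575), and was higher in DESeq2 with the replicate block (adjusted p = 0.00577). Ctnnd1, the p120 catenin itself, had 4.96 ± 1.90 CPM in H2afy_KO, against 8.45 ± 1.78 CPM in H2afy_WT pools (SD, n = 4 each), a log2 fold change of -0.77 beside the 1.37 of Ctnnd2, with an edgeR adjusted p of 0.615.

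The phospholipase list around Plcd3 leaned to negative values. Of 27 tested genes 18 were negative, with a median of -0.10, 6 were lower and 0 higher at an unadjusted p under 0.05 (3.69% and 3.88% of all genes were), and 4 lay wholly below H2afy_WT (2.35% of all). Prkcb, a diacylglycerol-activated kinase, had 9.27, 22.0, 8.01 and 12.5 CPM across H2afy_KO pools 1 to 4, against 25.9, 38.2, 24.5 and 23.3 CPM across H2afy_WT pools 1 to 4 (log2 fold change -1.11, edgeR adjusted p = 0.464). Under DESeq2 it was lower with an adjusted p of 0.0411. Plcb2, a phospholipase C of G-protein signaling, had 20.3 ± 4.44 CPM in H2afy_KO, against 32.9 ± 8.10 CPM in H2afy_WT pools (SD, n = 4 each; edgeR adjusted p = 0.473), and was lower in DESeq2 with the replicate block (adjusted p = 0.0161). The median of the list was 0.01 without H2afy_WT 2, so its sign rested on that pool. The other delta isoforms, Plcd1 and Plcd4, did not pass the filter on low counts.

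The list around Ahnak had 13 of 19 tested genes positive and a median of 0.21. Vim, the intermediate filament vimentin, had 71.9, 70.4, 69.7 and 91.0 CPM across H2afy_KO pools 1 to 4, against 64.0, 50.0, 45.0 and 62.4 CPM across H2afy_WT pools 1 to 4 (log2 fold change 0.45, edgeR adjusted p = 0.504), and was higher in DESeq2 with the replicate block (adjusted p = 0.0227). Anxa1, a calcium-dependent phospholipid-binding annexin, went the other way, with 99.4, 134, 122 and 163 CPM across H2afy_KO pools 1 to 4, against 448, 212, 179 and 462 CPM across H2afy_WT pools 1 to 4. Its log2 fold change was -1.33 with an edgeR adjusted p of 0.426, and under DESeq2 it was lower with an adjusted p of 0.00359. The binding partners S100a10 and Anxa2, named after their values were seen, were at 0.12 and -0.17. The median of the list was 0.04 without H2afy_KO 3 and 4, and 0.10 without H2afy_KO 4.

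**Figure D5:**
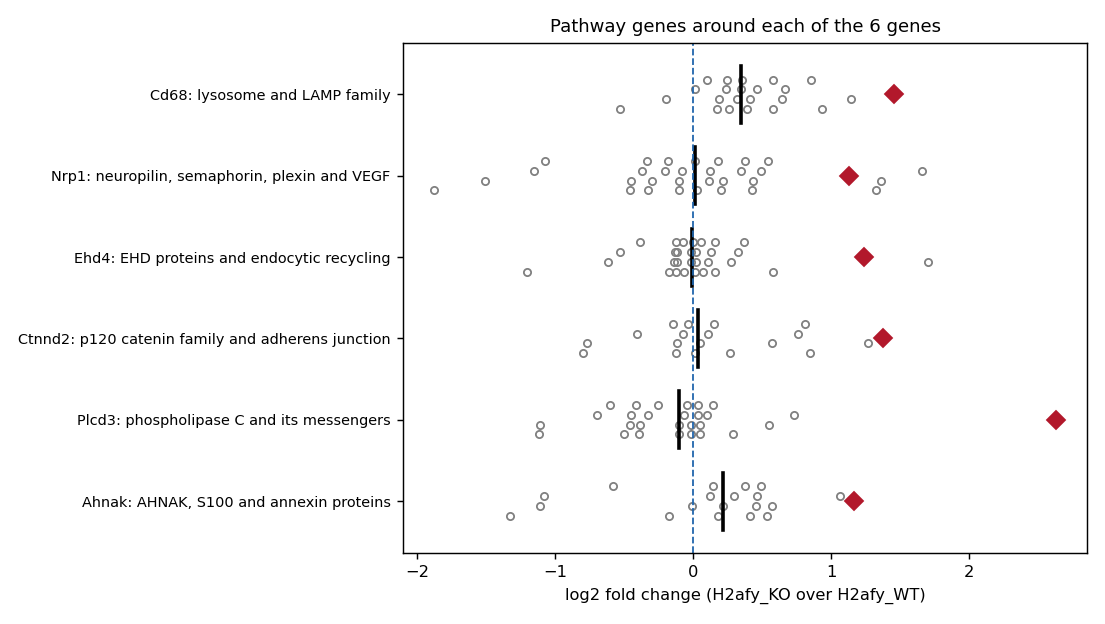
Log2 fold change, H2afy_KO over H2afy_WT (horizontal axis), of the tested genes of the list around each of the 6 genes (open circles), with the list median (black bar), the chosen gene itself (red diamond, not part of the list) and the median of all tested genes (dashed line). The medians run from -0.10 for the phospholipase list to 0.35 for the lysosome list.

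Among 9606 other genes with a mean of at least 5 CPM, those most like each of the 6 over the 8 pools were found. The measure was Pearson r of log2 CPM, a likeness that includes the genotype difference and has no test. The 6 genes were picked on that difference, so a high r may only return other genes higher in H2afy_KO. It is no result about the 6. Ctnnd2 and Plcd3, for example, had r = 0.92 with each other by log2 CPM and 0.17 by deviations from the genotype means. For Cd68 the genes most alike were Bloc1s2, of a complex that helps form lysosome-related organelles (r = 0.97), and Irf8 (r = 0.96). Next came the myeloid differentiation marker Myadm (r = 0.96). For Nrp1 the genes most alike were the receptor gene Tlr2 (r = 0.98), Lass6, a ceramide synthase (r = 0.97), and Klrd1, a lectin receptor of natural killer cells (r = 0.97). For Ehd4 they were the calcium channel gene Cacna1d (r = 0.99), the carboxypeptidase gene Scpep1 (r = 0.97) and Atp6v0d1, a subunit of the lysosomal proton pump (r = 0.97). Ctnnd2 was most like Il6st and Ivns1abp (r = 0.97 each), Plcd3 most like Ivns1abp (r = 0.97), Gbp3 and Rnf123 (r = 0.96 each), and Ahnak most like Zfp677 (r = 0.97), Gm4902 (r = 0.95) and Spg20 (r = 0.94). Il6st, the shared receptor subunit of the interleukin-6 family, had 67.3 ± 8.62 CPM in H2afy_KO, against 41.0 ± 3.34 CPM in H2afy_WT pools (SD, n = 4 each; edgeR adjusted p = 0.183). Ivns1abp, named for both Ctnnd2 and Plcd3, varied little within a genotype, at 677 ± 10.9 CPM in H2afy_KO, against 554 ± 11.8 CPM in H2afy_WT pools (SD, n = 4 each; log2 fold change 0.29, edgeR adjusted p = 0.571).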

How the data were processed

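The submitters' processing notes name HISAT2 2.0.6 and the mm9 build. The sources used here do not give the counter, gene models or strand option. The values are raw counts for each Ensembl gene ID, as the authors deposited them. The SMARTer Ultra Low kit of the labels' protocols does not mark strand, so reads of overlapping genes on opposite strands cannot be told apart. The 6 genes and all lists were chosen with earlier results of these data known.

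GENCODE M1 (NCBIM37, the assembly of mm9) named 37205 of 37991 gene IDs. All 340 list symbols matched, 12 of them through a synonym. No pool repeated another: over 28 pairs, chi-square divided by its degrees of freedom was at least 74.0.

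The test was edgeR 4.0.16 in R 4.3.3 (quasi-likelihood, TMM factors, filterByExpr with a minimum count of 10, robust fitting), H2afy_KO over H2afy_WT, with Benjamini-Hochberg adjustment over all tested genes and a threshold of 0.05. It was tested on simulated data, where it called 27 of 99 genes set to a log2 fold change of 1 in either direction. It called 93 of 100 genes set to 2 in either direction, and 12 unchanged genes. A gene that did not pass can therefore still differ. CPM was computed with TMM factors, and its log2 with a prior count of 2. P-values measure the spread between pools. Alternatives were DESeq2 1.42.0, limma 3.58.1 (voom), other scalings and filters, immunoglobulin genes removed or their share as a covariate, a replicate block, and pools left out.

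The labels share replicate numbers between groups without saying what they mark. Across genes, pools of one number had deviations from their genotype mean that correlated at 0.19, 0.19, 0.36 and 0.41, all over 0.1, so the numbers were read as pairs, as a hint from the data. Some pools of different numbers correlated more strongly, H2afy_KO 1 with H2afy_WT 2 at 0.52 and H2afy_KO 3 with H2afy_WT 4 at 0.45. The correlations come from the same counts as the block fits, so they cannot settle whether the numbers mark pairs.

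Named genes were the 6 genes and H2afy, the 3 genes most like each of the 6 (1 of them is not reported here), the 2 genes with the smallest p in each pathway list (none passed), defining markers of cell types, and nearest neighbours. Promoters came from RefSeq tables of GRCm38.p6, and all 6 genes matched.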

Additional observations from a re-analysis of the deposited data

Results flagged for a closer look

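Of 174 groups of 4 pools checked for a pool far from the other 3, 6 held one, where chance gives about 1 in 20. Csf1r, a gene of the monocyte list read beside Cd68, was low in H2afy_WT 2, at 9.17 CPM. In the lists around the chosen genes, Vim was high in H2afy_KO 4 at 91.0 CPM and Afdn was high in H2afy_KO 1 at 3.87 CPM. The summed level of the phospholipase list was high in H2afy_WT 2 at 1890 CPM, and that of the erythroid and megakaryocyte list was low in H2afy_KO 1 at 131 CPM. Gm10717, whose deviations were among the most like those of Nrp1, was high in H2afy_KO 3 at 12.6 CPM. None of the 6 chosen genes had such a pool in either genotype.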

How the results depend on the processing

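The log2 fold changes of the 6 genes moved by less than the spread between pools under all 19 alternatives (18 for Plcd3, which a filter of 5 CPM removed). They ranged from 1.28 to 1.64 for Cd68, 0.91 to 1.31 for Nrp1, 0.79 to 1.44 for Ehd4, 1.28 to 1.45 for Ctnnd2, 2.27 to 2.87 for Plcd3 and 0.999 to 1.30 for Ahnak. The 6 genes were picked as higher in these same pools, so values that stay positive are no result about them. Counts of called genes depended on the method, against 0 higher and 0 lower in edgeR. They were 1 higher and 4 lower with upper-quartile factors, 48 and 78 in the same order with DESeq2, 1 and 3 with limma-voom and sample weights, 7 and 9 with no filter, and 0 and 2 with at least 5 CPM in 4 samples. They were 0 higher and 3 lower without immunoglobulin genes and 1 and 2 with the immunoglobulin share as a covariate. With the replicate block edgeR called 4 higher and 11 lower and DESeq2 249 and 236. The block takes same-numbered pools as pairs, which the labels do not state, so calls made only with it rest on that reading. With 1 pool left out the counts were 0 to 0 higher and 0 to 1 lower. Of the pathway genes, DESeq2 called 0 higher and 2 lower, and with the block 9 and 4. Of the other genes read here, the edgeR block added calls of Irf8 (adjusted p = 0.0420) and Rag1 (adjusted p = 0.0467) and none of the pathway genes. The cause of these differences was not tested. Under the alternatives, 321 list medians moved by less than the spread between pools and 2 by more. The 2 were without H2afy_KO 3 and 4, at -0.35 for mature B and plasma cells, against 1.25, and -0.71 for stroma and endothelium, against -0.21. Plcd3, with 6 to 20 counts in H2afy_WT pools, is limited by depth.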

Other observations

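The genes most like each of the 6 in their deviations from the genotype means were also read, with no test. For Cd68 they were Fam18b, Maged2 and Samhd1, a nucleotide hydrolase that restricts retroviruses, with r = 0.97, 0.97 and 0.96 over the 8 pools. For Ehd4 they were Wipi1, an autophagy protein, Enpp1 and Taf9b (r = 0.99 each). Wipi1 had 22.5 ± 18.4 CPM in H2afy_KO, against 9.54 ± 6.80 CPM in H2afy_WT pools, and Enpp1 had 27.9 ± 30.3 CPM in H2afy_KO, against 10.6 ± 9.54 CPM in H2afy_WT pools (SD, n = 4 each). For Nrp1 they were Gm16869 (r = 0.99), Rabgap1l and Gm10717 (r = 0.98 each). For Ctnnd2 they were Cdc37l1 (r = 0.99), Snx18 (r = 0.97) and Jkamp (r = 0.93), for Plcd3 Mrps2 (r = 0.99), 2700038G22Rik and Snrnp35 (r = 0.97 each), and for Ahnak Gm17395 (r = 0.99), Xrcc4 (r = 0.98) and Dpm1 (r = 0.96). No gene was among the nearest 3 of more than 1 of the 6 by this measure, while Ivns1abp was by log2 CPM.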
